A study of Mus musculus with 10 samples.

Results

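The genes of the cytosolic ribosomal proteins were compared between Ptbp1-deficient and wild-type (WT) dendritic cells of mice aged 8 to 10 weeks. A gene belonged to the group when its mouse symbol started with Rpl or Rps followed by a digit, or was Rpsa, Rplp0, Rplp1 or Rplp2. Symbols of the S6 kinases (Rps6k), of Rps19bp and of pseudogenes marked -ps were left out. The rule gave 89 of the 19178 genes in the count table, and all 89 were among the 18248 genes tested. Of these, 77 encode a standard protein of the ribosome (46 of the large and 31 of the small subunit), 6 are protein-coding paralogs (Rpl7l1, Rpl22l1, Rpl36al, Rpl39l, Rps27l and Rps27rt), and 6 carry a pseudogene biotype in GENCODE M21 (Rps3a2, Rps3a3, Rpl6l, Rpl32l, Rpl37rt and Rps4l). Poly(A) RNA was sequenced in 5 Ptbp1-deficient and 5 WT libraries. The labels name neither the promoter or allele behind the deficiency nor the tissue of origin or sex. No label ties a library to a mouse of its own, so the spread behind each p-value may be technical.

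A ribosome is built from ribosomal RNA and about as many proteins as there are standard genes here, each present once per subunit except the acidic stalk proteins. The mRNAs of these proteins belong to the most abundant of a cell and start with a run of pyrimidines, the 5′ terminal oligopyrimidine (TOP) tract, through which growth signals acting on the kinase mTORC1 and the RNA-binding protein LARP1 control their translation. Ptbp1 encodes polypyrimidine tract-binding protein 1, a splicing regulator that binds pyrimidine-rich RNA. Dendritic cells, which present antigen to T cells, are known to raise protein synthesis when activated.

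Counts in genes ranged between 61759378 and 92697815 in Ptbp1-deficient libraries and between 50516163 and 66153758 in WT libraries. Levels are CPM, counts scaled to a common library size after TMM normalization, and a gene was called higher or lower at an adjusted p under 0.05 (edgeR's quasi-likelihood test, Benjamini-Hochberg over all genes tested). Ptbp1 itself stood at 74.4 ± 1.08 CPM in deficient and 294 ± 21.1 CPM in WT libraries (SD, n = 5 each), which is 25.3% of the WT level (log2 fold change -1.98). The difference was smaller in the deposited FPKM, at 28.7 ± 6.02 in deficient and 65.3 ± 2.80 in WT libraries (log2 fold change -1.18 on the log2(FPKM + 1) scale). All 12 dendritic cell markers listed were measured, and their summed level was 41496 to 45338 CPM in deficient and 34855 to 42822 CPM in WT libraries. The libraries also differed in other cell markers. All 10 markers of type 1 conventional dendritic cells were called higher and 9 of 10 of type 2 were called lower in deficient libraries. Of 15 macrophage markers, 14 were measured, 10 were called lower and none higher. Their summed level was 500 to 1292 CPM in deficient and 1661 to 4714 CPM in WT libraries. WT replicates 1 and 5 held the most, with 3205 and 4714 CPM. Of 13 B cell markers 11 were called lower and none higher, and their sum was 447 to 522 CPM in deficient libraries, against 1914 CPM in WT replicate 5 and 397 to 701 CPM in the other WT libraries. WT replicate 5 was also the highest WT library for plasmacytoid dendritic cell markers (239 to 293 CPM in deficient libraries and 635 CPM in that one; 1 called higher and 6 lower of 10) and neutrophil markers (95.3 to 173 CPM in deficient libraries and 843 CPM in that one; none of 10 called). Natural killer cell markers counted 7 higher and 1 lower of 12, at 200 to 279 CPM in deficient and 127 to 173 CPM in WT libraries, T cell markers 0 higher and 3 lower of 11 and erythroid markers 0 higher and 1 lower of 9. The part of these markers in the results was not tested, beyond the fit with macrophage markers as a covariate and the one without WT replicates 1 and 5. In such bulk libraries, fewer cells of a type and less RNA per cell cannot be told apart.

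Transcripts of the ribosomal proteins were moderately higher in Ptbp1-deficient cells. Of the 89 genes, 55 were called higher, 1 was called lower and 33 were not called, beside 21.9% of all genes tested called higher and 23.1% called lower (45.0% in either direction). The median log2 fold change of the 89 was 0.21, or 115% of the WT level, with the middle of the distribution between 0.13 and 0.29, against a median of -0.03 over all genes. Because these genes are abundant, the 2309 genes with a mean of at least 100 CPM give a closer background, and 37.5% of them were called higher; among the 77 ribosomal protein genes past that level 51 were. In 35 genes every deficient library stood above every WT library, a pattern seen in 17.2% of all genes, and no ribosomal protein gene had every deficient library below every WT library, a pattern seen in 16.2% of all genes. The changes were small in size. Only 16 of the genes called exceeded 1.25-fold.

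Among the 77 standard genes, 52 were called higher and none was called lower, although 25 were not called. Large-subunit genes counted 34 higher of 46 and had a median log2 fold change of 0.23. Small-subunit genes counted 18 higher of 31 and had a median of 0.20. Whether the subunits differ in this was not tested. The 52 higher genes ran from Rpl24 and Rps29 at the top to Rpl27a at a log2 fold change of 0.15.

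**Figure D1:**
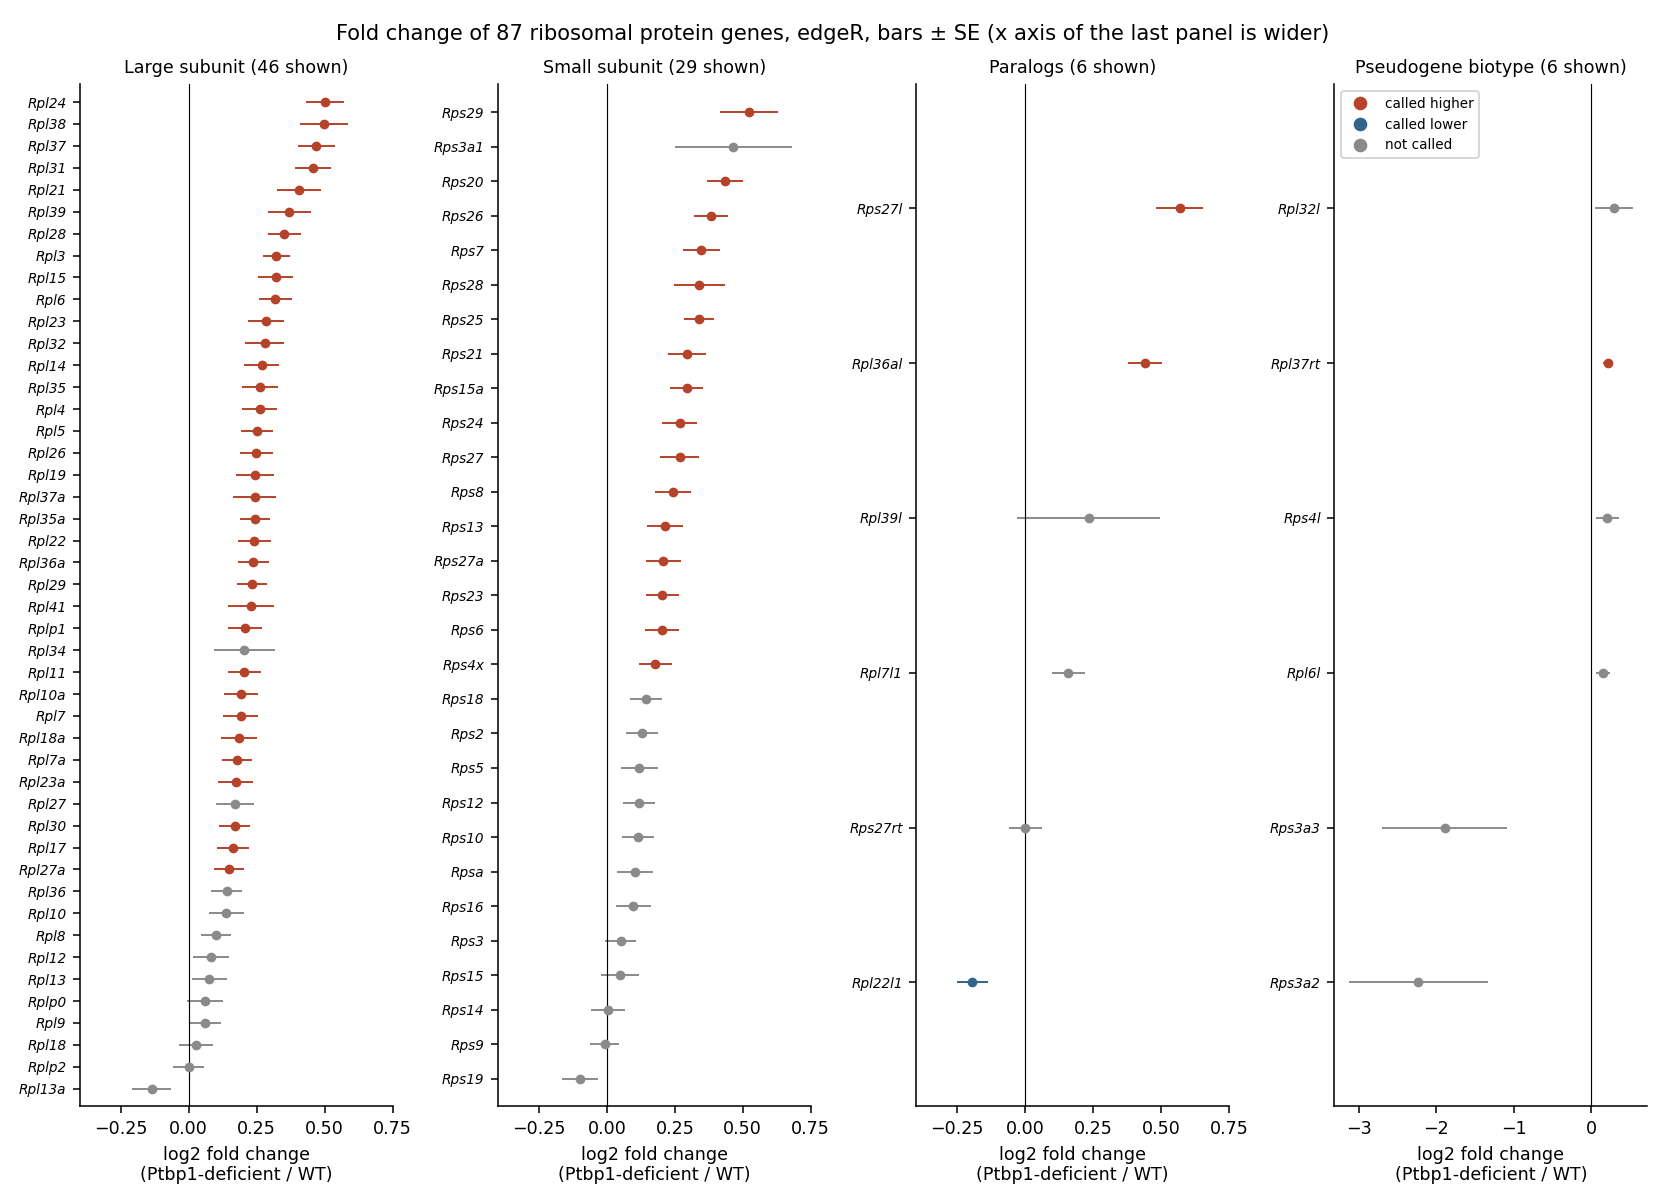
Log2 fold change (Ptbp1-deficient over WT) of 87 of the 89 ribosomal protein genes, in panels for the large subunit, the small subunit, the paralogs and the genes of pseudogene biotype, with bars of ± SE and colours for the edgeR call. Most points lie to the right of 0, Rpl22l1 is the only gene called lower, and the wide bars of Rps3a1, Rps3a2 and Rps3a3 come with libraries that differ strongly within a group; the axis of the last panel is wider.

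The rise was spread over the libraries and not equal in them. Taken as the median gene against the WT mean, the ribosomal protein level was 116%, 109%, 125%, 114% and 116% in Ptbp1-deficient replicates 1 to 5 and 88.9%, 99.3%, 109%, 107% and 98.0% in WT replicates 1 to 5. The lowest deficient library and the highest WT library were thus nearly level. WT replicate 1 was the lowest WT library for 83 of the 89 genes, WT replicate 3 the highest for 57 and WT replicate 4 for 27. Deficient replicate 3 was the highest of its group for 72 genes and deficient replicate 2 the lowest for 54. Ribosomal protein genes took 5.77%, 5.44%, 6.03%, 5.48% and 5.71% of the counts in genes in the deficient libraries and 4.94%, 5.18%, 5.55%, 5.48% and 5.03% in the WT libraries, and the groups overlap in this share.

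Among WT libraries, the share of reads outside genes moved with these levels. Reads outside annotated genes made up 17.7%, 17.9%, 17.4%, 18.3% and 18.9% of counts in deficient and 22.2%, 19.7%, 17.2%, 17.4% and 19.9% in WT libraries, so that the WT libraries with more such reads (1, 2 and 5) are those with the lower ribosomal protein share. The deficient libraries followed this less closely. Replicate 3 had the fewest such reads and the highest ribosomal protein share, but replicate 5 had the most at a share of 5.71%. Replicate 2 had the lowest share, 5.44%, with 17.9% of reads outside genes. With the share of reads outside genes as a covariate 43 members were called higher and 3 lower, beside 20.2% and 20.6% of all genes. With the summed macrophage marker level as a covariate 19 were called higher and 1 lower, beside 16.4% of all genes called higher in that fit, and the median log2 fold change was 0.16. Without WT replicates 1 and 5, the median was 0.13, with 38 called higher and 3 lower, beside 21.7% and 22.3% of all genes.

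**Figure D2:**
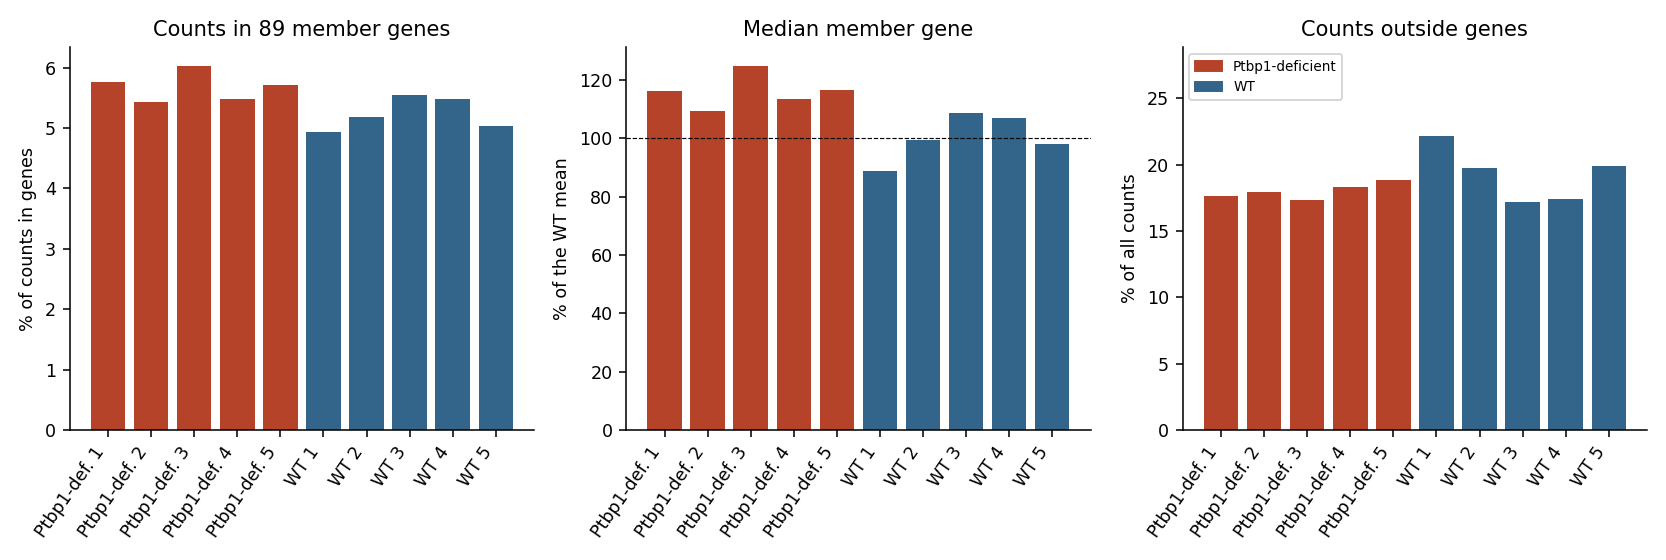
Each library's share of gene counts in the 89 ribosomal protein genes (%), its median ribosomal protein gene relative to the WT mean (%) and its share of counts outside genes (%), with Ptbp1-deficient libraries left and WT libraries right. Deficient replicate 3 has the highest share at 6.03% and WT replicate 1 the lowest at 4.94%, and WT replicate 1 also has the most counts outside genes at 22.2%.

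In the large subunit the increases were largest for Rpl24, Rpl38, Rpl37, Rpl31, Rpl21, Rpl39 and Rpl28. Rpl38, whose loss in mice alters the translation of Hox mRNAs and the axial skeleton, had 224, 192, 269, 227 and 257 CPM in Ptbp1-deficient and 145, 167, 178, 174 and 164 CPM in WT libraries. No library of one group reached into the other (log2 fold change 0.50, SE 0.088, adjusted p = 0.00072). Rpl24, altered in the Belly spot and tail mouse, had 64.8, 59.1, 75.1, 65.3 and 73.5 CPM in deficient against 42.7, 47.7, 51.5, 48.7 and 48.0 CPM in WT libraries. Its log2 fold change was 0.50 (SE 0.071, adjusted p = 0.00015), again without overlap in the counts. In the deposited FPKM the groups of Rpl24 did overlap, at 464 to 546 in deficient and 332 to 504 in WT libraries (log2 fold change 0.38, limma adjusted p = 0.030).

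Rpl37, a small protein with a zinc-binding motif, had 447, 396, 491, 435 and 467 CPM in deficient and 290, 327, 353, 340 and 305 CPM in WT libraries (log2 fold change 0.47, SE 0.068, adjusted p = 0.00018). Rpl31, whose product sits beside the exit of the peptide tunnel, had 636, 586, 669, 640 and 629 CPM in deficient and 400, 429, 486, 491 and 496 CPM in WT libraries (0.46, SE 0.066, adjusted p = 0.00017). Deficient and WT libraries did not overlap for either gene. Rpl21 had 223, 206, 265, 228 and 269 CPM in deficient against 158, 180, 191, 195 and 177 CPM in WT libraries (0.40, SE 0.081, adjusted p = 0.0017). Many processed copies of Rpl21 are annotated, and with its copies added the log2 fold change was 0.30 (adjusted p = 0.0016). Rpl39, which lines the peptide tunnel, averaged 465 ± 47.3 CPM in deficient and 360 ± 33.2 CPM in WT libraries, and its lowest deficient library, at 404 CPM, was level with its highest WT library at 405 CPM (0.37, SE 0.080, adjusted p = 0.0028). Rpl28 averaged 674 ± 41.0 against 528 ± 39.0 CPM (0.35, SE 0.061, adjusted p = 0.00069), with no overlap.

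In the small subunit Rps29 led, followed among genes called by Rps20 and Rps26. Rps29, a small zinc-binding protein of the subunit's head, had 632, 544, 769, 761 and 807 CPM in deficient and 405, 510, 518, 515 and 496 CPM in WT libraries (log2 fold change 0.52, SE 0.108, adjusted p = 0.0020). The groups did not overlap, and the deficient libraries spread more widely than the WT libraries. Rps20 had 583, 552, 666, 614 and 634 CPM in deficient and 397, 443, 481, 479 and 456 CPM in WT libraries (0.43, SE 0.065, adjusted p = 0.00024). Rps26, which contacts mRNA upstream of the start codon, had 573, 540, 651, 572 and 603 CPM in deficient and 411, 439, 482, 484 and 440 CPM in WT libraries (0.38, SE 0.062, adjusted p = 0.00043). Neither gene's groups overlapped.

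Rps25, needed by several viral internal ribosome entry sites, had 658, 598, 699, 613 and 678 CPM in deficient and 475, 513, 517, 554 and 507 CPM in WT libraries (0.34, SE 0.057, adjusted p = 0.00050). Rps6, the phosphorylated substrate of the S6 kinases, had 1337, 1289, 1396, 1224 and 1290 CPM in deficient and 1030, 1135, 1231, 1227 and 1055 CPM in WT libraries. Its smaller rise was called (0.20, SE 0.063, adjusted p = 0.020), although deficient replicate 4 lay among the WT libraries.

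**Figure D3:**
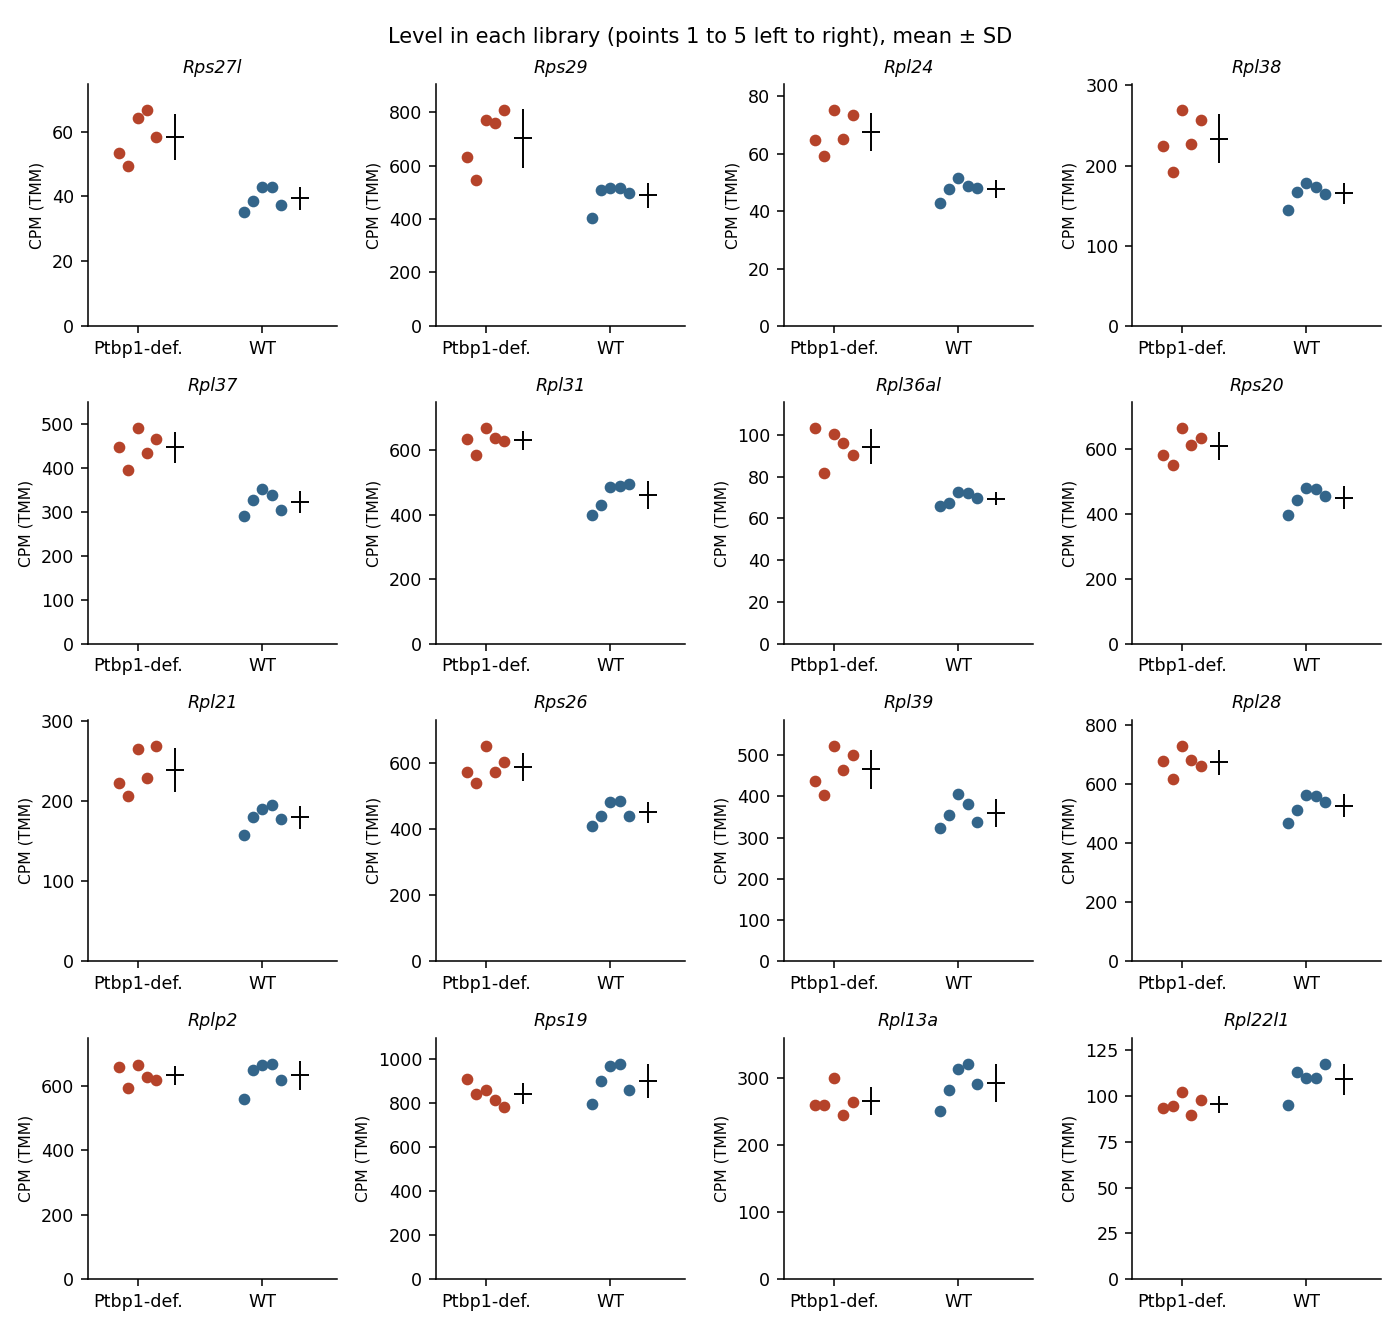
CPM of 16 ribosomal protein genes in each library (points) with the group mean ± SD, Ptbp1-deficient left and WT right in each panel, all axes starting at 0. The first 12 panels are the 12 genes called higher with the largest log2 fold change, and Rplp2, Rps19, Rpl13a and Rpl22l1 below them show overlapping groups with no rise.

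Some of the most abundant members did not pass the test. Rplp0, the core protein of the stalk that recruits translation factors, had 1862, 1815, 2022, 1769 and 1808 CPM in deficient and 1594, 1717, 1933, 1958 and 1704 CPM in WT libraries (log2 fold change 0.06, SE 0.067, adjusted p = 0.51). Its partner Rplp2 had 660, 595, 664, 629 and 618 CPM in deficient and 561, 650, 666, 669 and 620 CPM in WT libraries (-0.00012, SE 0.057, adjusted p = 0.999). The other acidic partner, Rplp1, was called higher at 1325 ± 70.9 against 1148 ± 93.7 CPM (0.21, SE 0.064, adjusted p = 0.020). Rpl12, at the base of the stalk, and Rpl10, which is added late in maturation, had log2 fold changes of 0.08 and 0.14 and were not called. Of the 5 genes of the stalk and its surroundings, 1 was called higher, beside 52 of the 77 standard genes and 21.9% of all genes tested. Whether these 5 genes differ from the other members was not tested.

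Rps19, mutated in human Diamond-Blackfan anaemia, had 908, 841, 860, 812 and 783 CPM in deficient and 795, 900, 969, 978 and 858 CPM in WT libraries (-0.10, SE 0.065, adjusted p = 0.24). Rpl13a, known in human cells for an interferon-induced role in silencing inflammatory mRNAs, had 260, 260, 299, 245 and 264 CPM in deficient and 250, 283, 314, 321 and 292 CPM in WT libraries (-0.14, SE 0.072, adjusted p = 0.15). In the deposited FPKM table Rpl13a was called lower (log2 fold change -0.21, limma adjusted p = 0.020). Rpl13a, Rpl36al and Rpl24 have far fewer counts per kilobase than their FPKM would give, with ratios of 0.17, 0.19 and 0.19 against a median of 1.06 over the members. Each is overlapped by another annotated gene on the same strand, and the part of that overlap in the ratio was not tested. Rpsa, the laminin receptor precursor, stood at 1643 ± 66.0 against 1529 ± 139 CPM (0.10, SE 0.065, adjusted p = 0.22).

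Rpl5 and Rpl11, which with 5S RNA form the particle that binds Mdm2 when ribosome assembly is disturbed, were both called higher. Rpl5 had 976, 937, 1049, 947 and 997 CPM in deficient and 751, 817, 914, 857 and 788 CPM in WT libraries (0.25, SE 0.059, adjusted p = 0.0046). Rpl11 had 862, 834, 933, 873 and 863 CPM in deficient and 666, 752, 832, 803 and 736 CPM in WT libraries (0.20, SE 0.061, adjusted p = 0.018). Both genes lacked overlap, with Rpl11 just clear at 834 CPM in the lowest deficient and 832 CPM in the highest WT library. Of 18 members mutated in human Diamond-Blackfan anaemia, 14 were called higher and none lower. Beside this, 52 of the 77 standard genes and 21.9% of all genes tested were called higher. The median log2 fold change of the 18 was 0.26, beside 0.21 for all members. Whether they differ from the other members was not tested.

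The paralogs did not follow a common course. Rps27l, a paralog of Rps27 that p53 induces, had the largest log2 fold change of all 89 members. It stood at 53.5, 49.2, 64.2, 66.6 and 58.4 CPM in deficient and 35.2, 38.5, 42.8, 42.9 and 37.3 CPM in WT libraries (0.57, SE 0.087, adjusted p = 0.00027). Its parent Rps27 had a log2 fold change of 0.27 (adjusted p = 0.010). Rpl36al, a retrogene-derived copy of Rpl36a, had 103, 81.7, 101, 96.1 and 90.5 CPM in deficient and 65.7, 67.3, 72.7, 72.1 and 69.6 CPM in WT libraries (0.44, SE 0.062, adjusted p = 0.00014). Neither paralog's groups overlapped.

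Rpl22 and its paralog Rpl22l1, known in mouse to be repressed by Rpl22, moved in opposite directions. Rpl22 had 359, 337, 383, 365 and 361 CPM in deficient and 272, 300, 333, 331 and 292 CPM in WT libraries (log2 fold change 0.24, SE 0.061, adjusted p = 0.0069). Rpl22l1 had 93.2, 94.3, 102, 89.5 and 97.8 CPM in deficient and 95.1, 113, 109, 110 and 117 CPM in WT libraries (-0.19, SE 0.057, adjusted p = 0.016). The groups were apart for Rpl22, whereas WT replicate 1 lay within the deficient range for Rpl22l1. Rpl22 was named here after its values were seen. Rpl7l1 stood at 104 ± 2.96 against 92.7 ± 8.87 CPM (0.16, adjusted p = 0.0503, not called), and Rps27rt at 75.7 ± 6.18 against 75.7 ± 4.57 CPM. The Rps27rt and Rps27 transcripts match at 100% of 341 aligned bases, so reads of these genes can hardly be told apart. Rpl39l, a paralog best known from the testis, was near the limit of measurement at 0.513 ± 0.0538 against 0.433 ± 0.168 CPM.

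Rps3a1 and its 2 processed copies, Rps3a2 and Rps3a3, varied far more between libraries than their sum. Rps3a1 is on chromosome 3 (86137940 to 86142702 of GRCm38, minus strand), Rps3a2 on chromosome 14 (88123017 to 88123808, minus strand) and Rps3a3 on chromosome 13 (108670603 to 108671397, plus strand). The copies are intronless in the annotation and match the Rps3a1 transcript at 99.5% and 98.9% of 792 and 795 aligned bases. Counted from base 1 of the Rps3a1 transcript, Rps3a2 differs by T349C, T667C, A778T and T801C. Rps3a3 differs at 9 positions and shares T349C and T667C with Rps3a2. The stretch around the first shared difference shows how little separates the 3 rows, with the differing base in capitals (bases 335 to 363, GENCODE M21).
Rps3a1: gaagtgagccttgcTgatctacagaatga
Rps3a2: gaagtgagccttgcCgatctacagaatga
Rps3a3: gaagtgagccttgcCgatctacagaatga

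Rps3a1 had 1334, 1271, 1370, 1011 and 1282 CPM in deficient and 671, 1150, 1044, 1196 and 481 CPM in WT libraries. Rps3a2 had 7.53, 7.73, 16.3, 116 and 13.6 CPM in deficient and 224, 23.9, 140, 37.0 and 333 CPM in WT libraries. Rps3a3 had 9.63, 10.4, 16.2, 110 and 14.1 CPM in deficient and 161, 26.1, 116, 34.3 and 260 CPM in WT libraries. The copies were highest in WT replicates 5 and 1 and, among deficient libraries, in replicate 4, and these libraries had the lowest Rps3a1 of their groups. In WT replicate 3 the copies were also raised, whereas Rps3a1 was the middle value of the WT libraries.

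Summed over the 3 rows, the level was 1351, 1289, 1402, 1237 and 1310 CPM in deficient and 1055, 1200, 1300, 1267 and 1074 CPM in WT libraries. The highest library exceeded the lowest 1.33-fold for the sum, but 2.85-fold for Rps3a1, 44.2-fold for Rps3a2 and 27.0-fold for Rps3a3. Taken alone, none of the 3 was called (log2 fold change 0.47 with adjusted p = 0.10 for Rps3a1, -2.23 with 0.063 for Rps3a2 and -1.89 with 0.076 for Rps3a3). With all annotated copies added, Rps3a1 had a log2 fold change of 0.16 (adjusted p = 0.069). Rps3a1 was singled out after its values were seen.

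**Figure D4:**
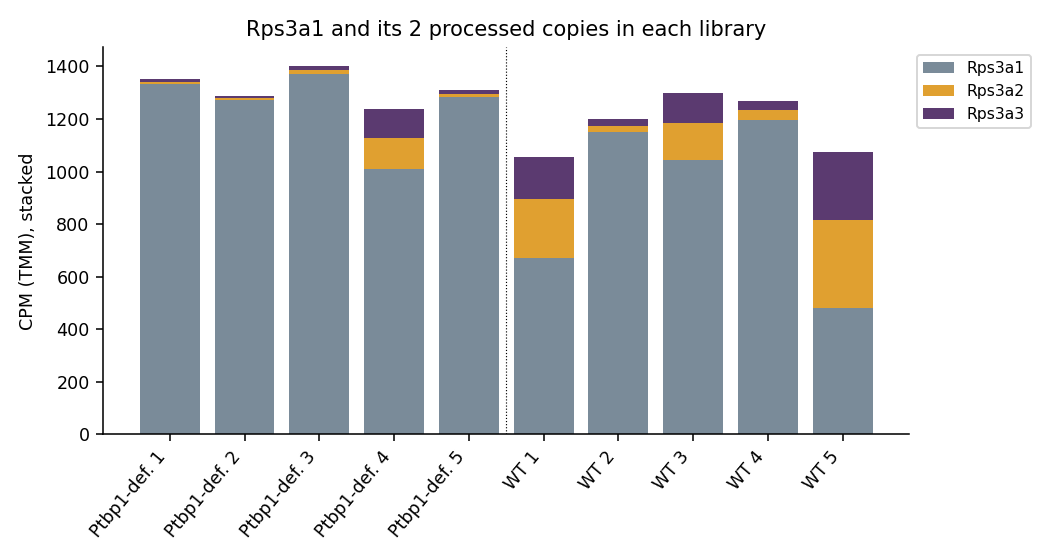
CPM of Rps3a1, Rps3a2 and Rps3a3 stacked for each library, Ptbp1-deficient left and WT right of the dotted line. The sum stays between 1055 and 1402 CPM, while the copies take a visible part in deficient replicate 4 and WT replicates 1, 3 and 5 and little in the others.

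Copies of other parent genes also stood apart in some libraries, and for Rpl34 the parent was low where the copy was high. Rpl34 had 295 CPM in WT replicate 5, where Rpl34-ps1 had 157 CPM; the other WT libraries had 400 to 486 CPM of Rpl34 and 37.6 to 44.9 CPM of the copy. The sum was 495 to 552 CPM in deficient and 438 to 531 CPM in WT libraries. Gm10020, a copy of Rpl15, had 0.573 to 0.893 CPM in the 5 deficient libraries and 24.6, 23.3, 32.5, 12 and 0.575 CPM in WT replicates 1 to 5, and Rpl15 was not low in WT replicate 3, where the copy was highest. Rps13-ps1 had 9.67 to 12 CPM in deficient and 11.6 to 40.9 CPM in WT libraries, and Gm10036, a copy of Rpl11, had 7.40 CPM in WT replicate 5 beside 63.7 to 112 CPM in all others, while Rpl11 there, at 736 CPM, was not high for its group. These genes were picked out for this spread after the values were seen.

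In all, 74 of the 89 members had at least 1 row of a processed or other pseudogene copy (90% identity or more over 80% or more of the shorter transcript), 412 rows together. These rows held 0.335% ± 0.0165 of gene counts in deficient and 0.323% ± 0.0169 in WT libraries. Of 46 copies reaching 15 CPM in a library, 5 varied more than 2-fold among the libraries. With the copies added to their parents, 55 of 83 genes were called higher and 1 lower.

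Levels of different genes can be set side by side only per length, as in the deposited FPKM, which lists 88 of the 89 members. Rplp1 had the highest mean FPKM, 2466 ± 101 in deficient and 2239 ± 114 in WT libraries. Among other members high in this order, Rps27 (1697 ± 150 against 1471 ± 70.6 FPKM), Rps14 (1491 ± 57.8 against 1575 ± 97.9) and Rpl13a (1425 ± 67.0 against 1651 ± 134) lay within their SDs of a neighbour in the order. Rpl13a had rank 8 in deficient and rank 3 in WT libraries, and Rps29 stood at 1657 ± 246 against 1210 ± 83.9 FPKM, with rank 4 in deficient and rank 12 in WT libraries. The lowest were Rpl32l (1.83 ± 0.374 against 1.57 ± 0.248 FPKM) and Rps4l (8.53 ± 2.00 against 7.72 ± 0.592 FPKM), both of pseudogene biotype. In FPKM 41 members were called higher and 4 lower (Rps3a2, Rps3a3, Rpl13a and Rpl22l1), beside 20.3% and 27.2% of all genes in that table, and all 41 were also called higher in the counts.

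Log2 fold change was weakly related to length. Over 83 protein-coding members, the Spearman correlation between log2 fold change and coding length was -0.31, and over the 13062 protein-coding genes tested it was -0.13. In the 21 shortest genes, with coding lengths up to 351 bp (Rps29, Rpl38 and Rpl39 among them), the median log2 fold change was 0.24 and 16 were called higher. In the 22 longest, of 612 to 1257 bp (Rpl3, Rpl4 and Rplp0 among them), it was 0.18 and 12 were called higher. These are descriptions over genes that share the same libraries, and the part of length in the result was not tested.

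Start regions of 65 members were found in the RefSeq promoter table for GRCm38.p6, which gives 250 bases before and 50 after each start. A run of at least 7 pyrimidines within 20 bases of a start was present in 39 of them (60.0%), against 27.5% of 27025 genes. The motif CTTTCC, searched in the direction of transcription within those 20 bases, was in 12 members (18.5%) and 2.30% of genes. CCGGAAG, the core bound by GABP and other ETS factors, occurred on either strand of the whole 300 bases in 26 members (40.0%) and 9.93% of genes, and TATAAA in 8 members (12.3%) and 15.7% of genes. Among matched members, the pyrimidine run was in 23 of 39 called higher (59.0%) and 15 of 25 not called (60.0%), a difference that was not tested. The following lines give 15 bases before to 15 bases from each start, with the longest pyrimidine run in the window in capitals. Rpl38 (chr11:114668565-114668594, plus strand), Rpl28 (chr7:4792950-4792979, plus) and Rpl35a (chr16:33056467-33056496, plus) are examples called higher, Rps10 (chr17:27635230-27635259, minus) and Rplp2 (chr7:141447636-141447665, plus) were not called, and Rpl22l1 (chr3:28805493-28805522, plus) was called lower.
Rpl38: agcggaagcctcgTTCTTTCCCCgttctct
Rpl28: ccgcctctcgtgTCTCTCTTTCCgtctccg
Rpl35a: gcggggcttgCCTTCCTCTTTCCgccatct
Rps10: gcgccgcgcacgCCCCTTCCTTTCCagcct
Rplp2: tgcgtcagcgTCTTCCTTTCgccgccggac
Rpl22l1: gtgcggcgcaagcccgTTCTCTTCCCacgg
Runs of 10 to 13 pyrimidines stand at or near the start in all 6 windows. The genes were picked by hand as examples of each call. Where a gene had several starts, the one with the longest run near it was shown. Of all matched members only 39 of 65 had a run of 7 or more, so the windows carry no test.

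Other mRNAs known to start with a TOP tract were also called higher for the most part. Of 20 such genes outside the group, 15 were called higher and none lower, with a median log2 fold change of 0.25. Over all genes tested, 21.9% were called higher and 23.1% lower. For the abundant genes used earlier as a closer background, these shares were 37.5% and 23.6%. Whether the 20 genes differ from either background was not tested. Nap1l1, a histone chaperone, stood at 602 ± 35.2 CPM in deficient and 425 ± 25.9 CPM in WT libraries (0.50, SE 0.056, adjusted p = 2.7e-05), and Eif3m, a subunit of initiation factor eIF3, at 136 ± 5.86 against 97.3 ± 7.64 CPM (0.49, SE 0.055, adjusted p = 3.3e-05). Naca and Btf3, the subunits of the nascent polypeptide-associated complex, were both called higher, as was Npm1, whereas Tpt1, Eef2, Eef1g, Eif4b and Hnrnpa1 were not called. Of 3 genes of ribosomal proteins with other names, 1 was called higher and 2 were not called. The one called, Rack1, stood at 999 ± 47.0 against 873 ± 62.2 CPM (0.19, adjusted p = 0.016). Fau, not called, had a log2 fold change of 0.09.

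Among 7 elongation genes, 4 were called higher and 1 lower, beside 21.9% and 23.1% of all genes tested. Eef2 and Eef1g, counted above with the TOP mRNAs, also encode elongation factors, so the 2 counts may share genes. Eef1a1, which brings aminoacyl-tRNA to the ribosome, averaged 8138 ± 473 CPM in deficient and 6570 ± 376 CPM in WT libraries (0.31, adjusted p = 0.0022). The gene called lower was Eef2k, the kinase that inhibits elongation factor 2, at 91.5 ± 8.92 against 131 ± 15 CPM (-0.52, SE 0.086, adjusted p = 0.00048). Its groups did not overlap.

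In the counts, genes that make ribosomes were called higher more often than lower, beside 21.9% of all genes called higher and 23.1% lower. Over the 208 genes outside the group in all lists of ribosome making and translation, 80 were called higher and 22 lower, with a median log2 fold change of 0.09, but in the deposited FPKM 41 were called higher and 34 lower. By list, the counts gave 6 higher and 0 lower of 13 for the small nucleolar particles that modify ribosomal RNA, 5 and 1 of 14 for RNA polymerase I, 18 and 3 of 44 for small-subunit assembly and 23 and 3 of 55 for large-subunit assembly. Polr1a, the largest subunit of RNA polymerase I, stood at 130 ± 9.72 CPM in deficient and 83.0 ± 4.10 CPM in WT libraries (0.65, SE 0.056, adjusted p = 4.8e-06). Ncl, the nucleolar protein nucleolin, stood at 532 ± 20.8 against 382 ± 18.6 CPM (0.48, SE 0.046, adjusted p = 1.0e-05), and Dcaf13, of the small-subunit processome, at 38.6 ± 1.52 against 29.0 ± 0.645 CPM (0.42, adjusted p = 1.1e-05). The groups were apart for all 3 genes. The medians of the small-subunit and large-subunit assembly lists were 0.09 and 0.11, below the 0.21 of the ribosomal proteins. Chaperones that escort single ribosomal proteins counted 4 higher and 1 lower of 10.

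Regulators were mixed. Of 23 genes of mTORC1 and TOP mRNA control, 6 were called higher and 4 lower, close to the shares of all genes called in each direction. The inhibitors Deptor (10.9 ± 1.34 against 23.2 ± 3.70 CPM, log2 fold change -1.09, adjusted p = 1.8e-05) and Akt1s1 (26.6 ± 2.10 against 38.9 ± 3.31 CPM, -0.55, adjusted p = 7.7e-05) were called lower. Larp1, which binds the TOP tract, was called higher at 261 ± 3.76 CPM in deficient and 212 ± 11.8 CPM in WT libraries (0.30, adjusted p = 0.00016). Ribosome rescue and quality control counted 2 higher and 5 lower of 14, with Ascc2, which helps to split collided ribosomes, at 126 ± 5.13 against 85.5 ± 9.15 CPM and Map3k20, the kinase ZAK that senses collided ribosomes, at 9.76 ± 1.04 against 16.2 ± 2.16 CPM. Transcription factors known to act at ribosomal protein promoters counted 3 higher and 4 lower of 14, again close to the shares of all genes.

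Across 26 other fits, the direction of the group as a whole did not turn. The number called higher ran from 19 with the macrophage marker covariate to 60 with DESeq2, and the median log2 fold change was above 0 in each. The closer background of abundant genes was taken in the reported fit only. Whether the group exceeds equally abundant genes in the other fits was not tested. The TMM factors were 0.964 to 0.985 in deficient and 1.003 to 1.085 in WT libraries. With library size only, the median was 0.14 with 41 called higher, beside 17.3% of all genes. With upper-quartile scaling it was 0.17 with 46 called higher, beside 18.9% of all genes. Leaving out single libraries gave 39 to 59 called higher, the lowest without deficient replicate 3. At an adjusted p under 0.01, 33 members were called higher. The 19 members called higher with the macrophage covariate were called higher in each of the 26 fits at an adjusted p under 0.05. They include Rps27l, Rps29, Rpl24, Rpl38, Rpl37, Rpl31, Rpl36al, Rps20, Rpl21, Rps26, Rpl39, Rpl28, Rps28, Rps25, Rpl3, Rpl6, Rps15a and Rpl36a. Rpl3, whose protein reaches towards the peptidyl transferase centre, stood at 1208 ± 39.2 CPM in deficient and 966 ± 49.9 CPM in WT libraries (0.32, SE 0.048, adjusted p = 0.00024).

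**Figure D5:**
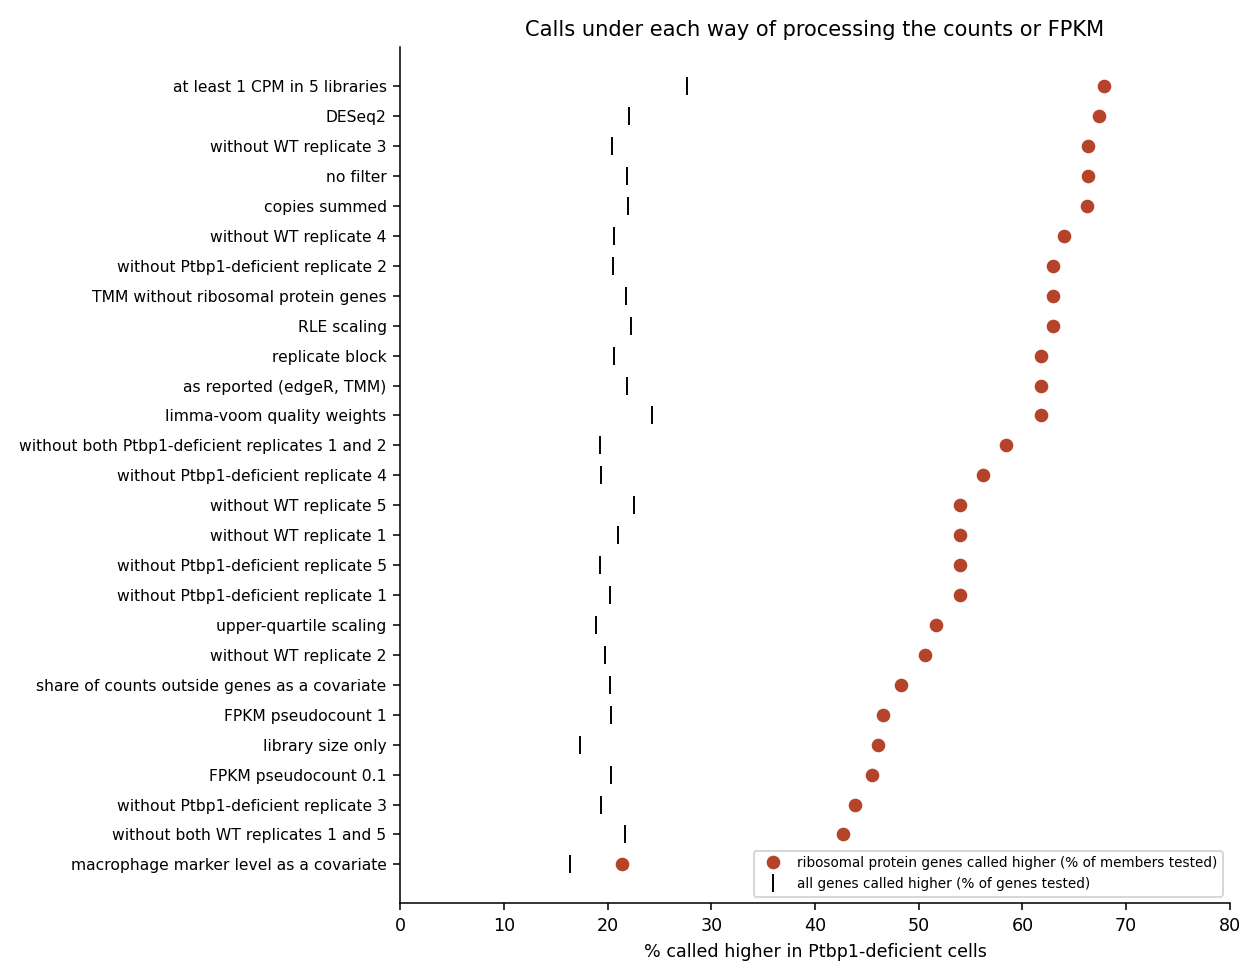
Share of ribosomal protein genes (circles) and of all genes tested (ticks) called higher in Ptbp1-deficient cells, in percent, under the reported fit and each other setting, sorted by the share of ribosomal protein genes. The circles lie right of the ticks in every setting and come closest with the macrophage marker covariate, at 21.3% against 16.4%. The ticks take in genes of every level. For abundant genes the share called higher was 37.5% in the reported fit and was not taken in the other settings. The plot therefore cannot show whether ribosomal protein genes exceed equally abundant genes in those settings.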

How the data were processed

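Poly(A) RNA of 5 Ptbp1-deficient and 5 WT libraries was extracted with TRIzol and sequenced on an Illumina HiSeq as 150 bp pairs, per the labels' protocols. HISAT2, StringTie and DESeq2 are named in the submitters' processing notes, with the human build GRCh38, although the deposited identifiers are mouse Ensembl genes. No source used here names the counter or says whether it used strand, so 19 members whose exons overlap a gene on the opposite strand may share reads with it. The authors deposited raw counts per gene (at least 2 in every library) and FPKM per gene (lowest 1.00; 10 repeated identifiers were summed). Rows that name no gene were kept out of library sizes. They are reads outside genes (17.2% to 22.2% of counts), ambiguous (1.78% to 1.94%), low quality (0.891% to 1.05%), not aligned (1.00% to 1.12%) and not unique (4.51% to 5.08%).

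GENCODE M21 (GRCm38) gave symbols for 19035 of 19178 gene rows. The filter of edgeR 4.0.16 (filterByExpr) left 18248. TMM scaling and the quasi-likelihood test compared genotypes with no covariate, and adjusted p-values are Benjamini-Hochberg over all genes. FPKM were tested with limma 3.58.1 on log2(FPKM + 1), which understates changes of low genes. Copies were found with BLAST 2.17.0. The fit was tested on simulated data.

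The members, gene lists and alternatives were chosen with earlier results of these data known. Full values are given for up to 12 called members in each direction by log2 fold change, the paralogs, stalk and 5S particle genes, Rps6, Rpsa, Rps19, Rpl13a, Rpl38 and Rps25, the highest and lowest FPKM, and up to 4 called genes of each other list by adjusted p. Single values of a few genes are not reported here. The fit with the share of counts outside genes and the one with copies added were chosen after seeing the data, as was the text's choice among the genes this rule gave.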

Additional observations from a re-analysis of the deposited data

Results flagged for a closer look

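Among 150 groups of 5 libraries screened for a single library far from the rest (the named genes in each genotype), 8 had one. Chance gives about 1 in 20, so 8 is about the number to be met by chance. The genes share the same libraries, so the groups are not independent. The 3 Rps3a genes account for 3 of the 8, all in Ptbp1-deficient replicate 4. Rps3a2 had 116 CPM there against 7.53 to 16.3 CPM in the other deficient libraries, Rps3a3 had 110 CPM against 9.63 to 16.2 CPM, and Rps3a1 had 1011 CPM against 1271 to 1370 CPM.

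WT replicate 1 stood apart in 4. It had 405 CPM of Rps29 against 496 to 518 CPM in the other WT libraries, 331 CPM of the elongation factor Eif5a against 391 to 410 CPM, 22.6 CPM of the assembly factor Ltv1 against 27.4 to 29.0 CPM, and 29.6 CPM of Deptor against 20.5 to 22.8 CPM. Ptbp1-deficient replicate 3 had 35.0 CPM of Ltv1 against 30.9 to 32.0 CPM in its group.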

How the results depend on the processing

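The 26 alternatives and the stricter adjusted p under 0.01 together gave 964 values for 36 named members. Of these, 868 kept their direction and side of the threshold, 25 lost a call, 30 gained one and 41 changed sign. The labels give no pairing of the samples. Deviations of same-numbered libraries correlated weakly (-0.02, 0.11, -0.10, -0.09 and 0.07), with only number 5 correlating best with its own number. With 5 libraries a group, this cannot exclude a pairing. The fit with the replicate block called 55 members higher and 1 lower.

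Against 55 members called higher and 1 lower, 19 were higher with the macrophage covariate and 33 higher and 0 lower at an adjusted p under 0.01. Lower calls were 2 with DESeq2 and upper-quartile scaling, 3 with library size only, limma-voom, the share outside genes as a covariate or with WT replicates 1 and 5 left out, 4 with FPKM at either pseudocount, and 0 without Ptbp1-deficient replicates 1 and 2. Leaving out single libraries gave 39 to 59 higher and 1 to 3 lower. Of the other genes of ribosome making, 80 higher and 22 lower became 41 and 34 in FPKM at either pseudocount, 44 higher with the macrophage covariate, and 42, 36 and 13 lower with library size only, upper-quartile scaling and an adjusted p under 0.01. Without single libraries, lower calls ranged between 1 and 5 where 3 were reported for large-subunit assembly (1 with the replicate block) and between 2 and 6 where 5 were reported for ribosome rescue. With all counted reads as denominator, the members' share averaged 4.16% in deficient and 3.78% in WT libraries, where it was 5.69% and 5.23% of gene counts.

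Sign changes concerned 10 of the named members. Rplp2 turned to 0.0074 with DESeq2, 0.0052 with RLE, 0.013 with no filter, 0.0068 without deficient replicates 1 and 2 and 0.0016 with the replicate block, and ranged between -0.032 and 0.021 without single libraries. Rps27rt turned to -0.072 in FPKM at either pseudocount, -0.067 with library size only, -0.0020 with TMM without ribosomal proteins, -0.0016 with the 1 CPM floor, -0.044 with limma-voom, -0.042 with upper-quartile scaling, -0.14 with the macrophage covariate, -0.061 with the share outside genes, -0.00038 with the replicate block, -0.041 without deficient replicates 1 and 2, -0.058 with WT replicates 1 and 5 left out, and ranged between -0.045 and 0.023 without single libraries. Rplp0 turned to -0.029 in FPKM, -0.0090 with library size only, -0.026 with the macrophage covariate, -0.012 without WT replicates 1 and 5 and -0.019 with the share outside genes. With the macrophage covariate Rpl7l1 was -0.014, Rps4l -0.24, Rps3a2 0.37, Rps3a3 0.42, Rpl12 -0.0015, Rps3a1 -0.15 and Rpl34 -0.057. Rpl12 was -0.00056 with the share outside genes, and Rps4l -0.050 without deficient replicates 1 and 2. None of these values was called, and the cause was not tested. Depth did not limit the abundant members, but Rpl32l and Rpl39l lie at or under 1.05 CPM in every library, where counting error is large.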
